A study of Sus scrofa with 15 samples.

Results

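This report describes genes of the NRF2 and aryl hydrocarbon receptor (AHR) pathways in the backfat of Iberian pigs. The members were chosen by name, with earlier results of these data known. They are NFE2L2 (the gene of NRF2), its targets NQO1, HMOX1, GCLC, GCLM and TXNRD1, and AHR with its targets CYP1A1, CYP1B1 and TIPARP. Symbols were matched to Ensembl gene identifiers. Of the 10 members, 9 were found among the 30477 genes with counts, and all 9 passed the filter on low counts. HMOX1 was not analysed here.

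Backfat, the subcutaneous fat over the back, was biopsied from pigs of the Iberian breed, and 1 RNA-seq library was read per pig, with 5 pigs in each of 3 diet groups (15 libraries). C received a conventional compound feed, DOP a compound feed made with dry olive pulp, and WCOC a compound feed without the by-product plus a silage of wet crude olive cake and barley straw that was offered freely. Olive pulp and cake are what remains of the fruit after oil extraction, and the question behind the members is whether genes that answer to oxidants and plant phenolics differed between the diets. All pigs were about 1 year old at sampling, carried no genetic modification and were fed the diets through the growing period. Compound feed was restricted in all groups, less in C than in the others. Each diet was fed in a single pen without individual feeders, so pen and diet cannot be told apart, and libraries were made from the samples with the better RNA.

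NRF2 is a transcription factor that KEAP1 normally marks for degradation. Oxidants and electrophiles, among them many plant phenolics, release it, and with a small MAF protein it binds antioxidant response elements (ARE) and switches on enzymes that make glutathione, recycle thioredoxin and reduce quinones. AHR is a receptor for planar aromatic compounds, including dioxins, tryptophan products and some flavonoids. With its partner ARNT it binds xenobiotic response elements (XRE), and CYP1A1 is the classic gene that it switches on. The pathways meet at genes such as NQO1, which both factors are known to regulate. In fat, CYP1B1 is known mainly from stromal cells, and NRF2 is known for its part in adipocyte differentiation.

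The letters of these elements were looked for in the reference sequence near each gene start, because NRF2 and AHR are known to bind such elements. XRE was spelled TNGCGTG and ARE TGACNNNGC, on either strand, in a window from 1000 bases before to 50 bases after the gene start annotated by RefSeq on Sscrofa11.1. Among 20647 protein-coding promoters, 13.95% held at least 1 XRE and 32.2% at least 1 ARE. CYP1A1 held 4 XRE, and 0.019% of promoters held 4 or more. It also held 1 ARE. GCLC held 2 ARE, NQO1 and GCLM held 1 each, and 6.24% of promoters held 2 or more. No match to either spelling was found in the windows of NFE2L2, HMOX1, TXNRD1, AHR, CYP1B1 and TIPARP. The matches are given with up to 30 bases on each side, 5′ to 3′ on the plus strand, with the matched letters in capitals. Shown are the XRE of CYP1A1, which was upregulated in WCOC, and the ARE of NQO1 and GCLC, whose levels moved less. The ARE of CYP1A1, 629 bases before its start, and that of GCLM, 473 bases before its start, are not printed. The numbers in the names are bases before the gene start, and no XRE overlapped an ARE. A match says only that these letters are present, and elements outside the window were not looked for. No link between the letters and the levels was tested.
CYP1A1 XRE 978, chr7:58801887-58801945: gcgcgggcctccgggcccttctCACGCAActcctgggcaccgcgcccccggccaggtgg
CYP1A1 XRE 887, chr7:58801970-58802036: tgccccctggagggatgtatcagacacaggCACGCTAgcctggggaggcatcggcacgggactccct
CYP1A1 XRE 502, chr7:58802355-58802421: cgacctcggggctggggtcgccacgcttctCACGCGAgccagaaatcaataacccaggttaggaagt
CYP1A1 XRE 47, chr7:58802810-58802876: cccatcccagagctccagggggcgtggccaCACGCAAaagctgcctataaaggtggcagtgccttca
NQO1 ARE 210, chr6:17292722-17292790: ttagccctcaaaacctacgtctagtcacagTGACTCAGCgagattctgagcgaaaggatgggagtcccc
GCLC ARE 692, chr7:27208843-27208911: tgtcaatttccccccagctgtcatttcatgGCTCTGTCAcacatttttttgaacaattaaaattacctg
GCLC ARE 182, chr7:27209353-27209421: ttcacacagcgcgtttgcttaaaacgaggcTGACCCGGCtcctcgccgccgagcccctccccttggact

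**Figure D1:**
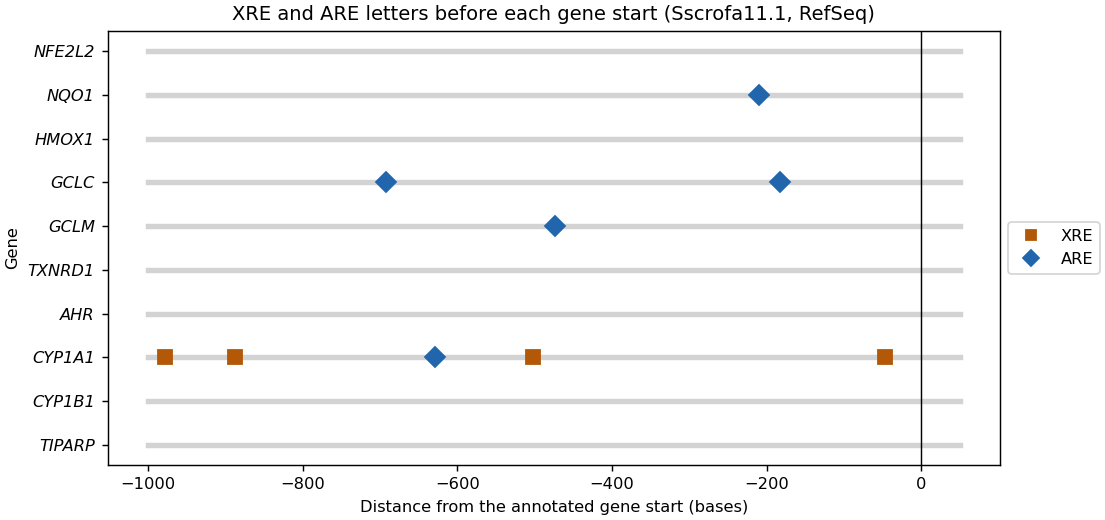
Positions of XRE and ARE letters in the window before each gene start, by gene (rows) and by distance from the annotated start in bases (horizontal axis). CYP1A1 is the only member with XRE letters, at 978, 887, 502 and 47 bases before its start, and NQO1, GCLC, GCLM and CYP1A1 hold ARE letters.

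Counts on genes ran from 22373715 to 34745218 per library, so that CYP1A1 was counted 32 to 334 times in a library and CYP1B1 79 to 482 times, fewer than any other member at the lower end. Values are given as CPM, the share of a library's counts after TMM scaling. A gene was called a DEG when the edgeR quasi-likelihood test gave it an adjusted p below 0.05 and its log2FC was 0.58 or more in either direction. The 4 C libraries with replicate numbers 1 to 4 and the 5 WCOC libraries were run on flow cell A, whereas the DOP libraries and C replicate 5 were run on flow cell B. WCOC vs. DOP therefore cannot be told apart from flow cell, and DOP vs. C can be told apart from it only through C replicate 5. The adipocyte markers were plainly present, with a summed level of 12092 to 21377 CPM over 7 tested genes and ADIPOQ (adiponectin) the most abundant. Skeletal muscle markers stood apart between libraries. Their summed level exceeded 1000 CPM in 2 C libraries and in 3 DOP libraries, where it reached 40652 CPM, but in none of the WCOC libraries. Fits without these muscle-rich libraries kept 3 C, 2 DOP and 5 WCOC libraries, so they rest on fewer samples.

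In WCOC vs. C, CYP1A1 was upregulated 2.84-fold, CYP1B1 was downregulated 2.68-fold and TXNRD1 was downregulated 1.77-fold. NFE2L2 and AHR themselves were not DEGs in any comparison. In DOP vs. C no member was a DEG, and NQO1 had the smallest p. Against the whole transcriptome, 1 of 9 members was a DEG with a higher level in WCOC vs. C, where 2.33% of all 14918 tested genes were, and 2 were DEGs with a lower level, where 3.93% of all genes were. Levels did not overlap between the diets for 3 of 9 members (TXNRD1, GCLC and CYP1A1) and for 7.62% of all genes. The median log2FC of the members was -0.07, beside 0.00433 over all tested genes, with 4 members higher and 5 lower. In bulk tissue, fewer cells of a type and less RNA per cell cannot be told apart.

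**Figure D2:**
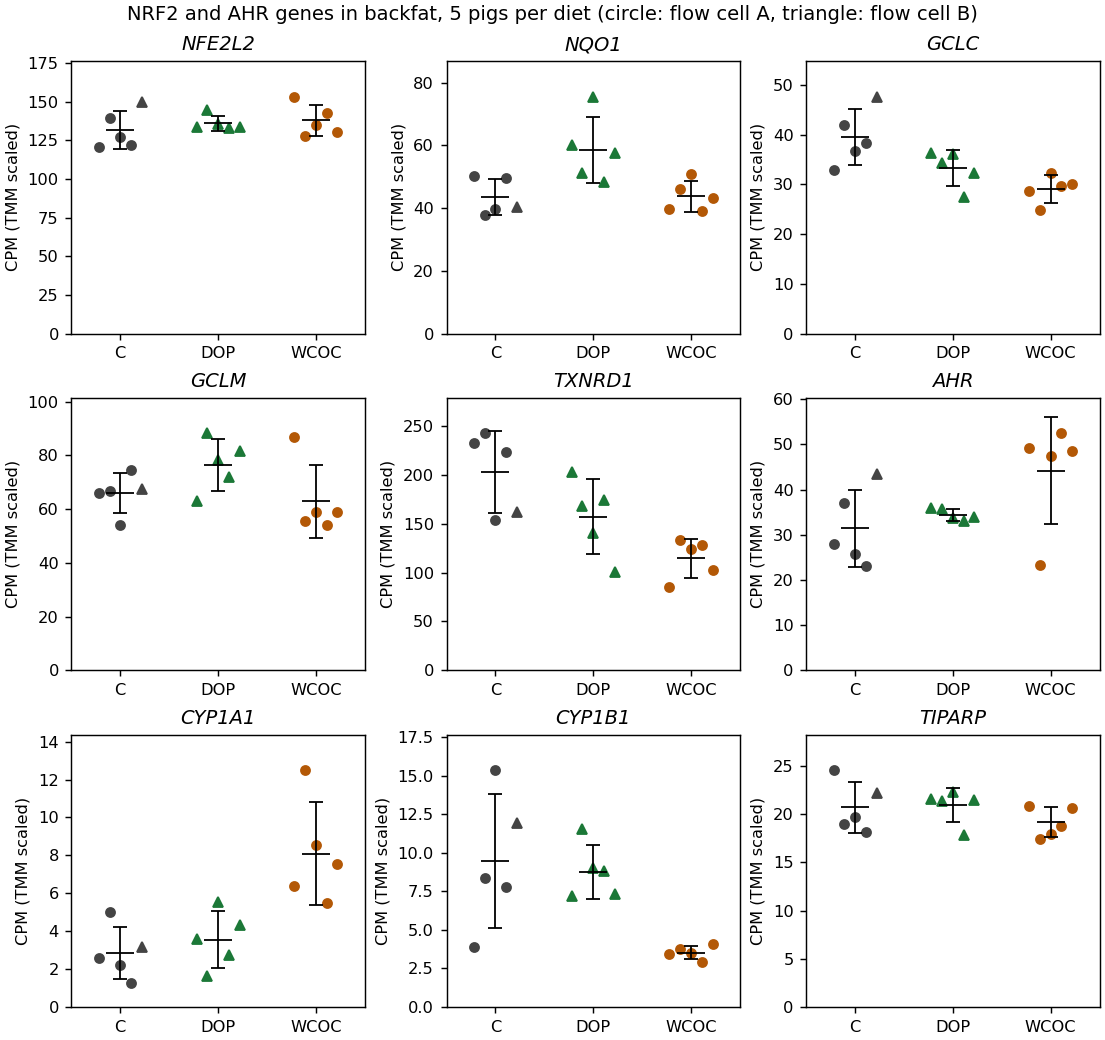
Level of each member (vertical axes, CPM from 0) in every library of the 3 diets (points, circles for flow cell A and triangles for flow cell B), with the mean and SD of 5 libraries (black). CYP1A1 was higher and TXNRD1 and GCLC lower in every WCOC library than in every C library, and the WCOC levels of CYP1B1 lay between 2.89 and 4.07 CPM.

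Per kilobase of exon, averaged over all libraries, TXNRD1 was the most abundant member (45.7 CPM per kb), followed by NQO1 (28.6), GCLM (13.4), NFE2L2 (13.4), GCLC (8.48), AHR (7.25), TIPARP (5.24), CYP1A1 (1.68) and CYP1B1 (1.13). The ranges over libraries did not overlap between NQO1 and GCLM, between NFE2L2 and GCLC, and between TIPARP and CYP1A1. The other neighbours in this order overlapped, and GCLM exceeded NFE2L2 in only 7 of 15 libraries. The place of NFE2L2 is uncertain, because its RefSeq model is long and reaches over HNRNPA3 and AGPS on the opposite strand. AHR likewise overlaps LOC102159096 and LOC110255481, and whether counting used the strand is not given in the sources used here.

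NFE2L2 (ENSSSCG00000015987, chr15:82967485-83146185, minus strand) had nearly the same level in all diets. It was 132 ± 12.4 CPM in C, 136 ± 4.84 in DOP and 138 ± 10.3 in WCOC (SD, n = 5 each). Its log2FC was 0.05 in DOP vs. C (95% interval -0.11 to 0.21) and 0.06 in WCOC vs. C (-0.10 to 0.22). NRF2 activity is known to be set mainly through the stability of the protein, which RNA-seq does not measure.

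TXNRD1 (ENSSSCG00000000843, chr5:80170334-80213889, minus strand) encodes cytosolic thioredoxin reductase, which uses NADPH to keep thioredoxin reduced. The 5 C libraries held 233, 243, 154, 223 and 162 CPM, the DOP libraries 203, 168, 141, 175 and 101 CPM, and the WCOC libraries 85.3, 133, 124, 128 and 103 CPM. Every WCOC library lay below every C library, whereas DOP overlapped both. TXNRD1 was downregulated in WCOC vs. C with a log2FC of -0.82 (SE 0.19, edgeR adjusted p = 0.0153). The difference was as large on flow cell A alone (log2FC -0.90) and TXNRD1 was called whichever single library was left out. Without the muscle-rich libraries, an alternative chosen after seeing the data, it was also called (log2FC -0.87). On lane 2 of flow cell A alone, with 4 C and 3 WCOC libraries and also chosen after seeing the data, the log2FC was -0.91 but the edgeR adjusted p was 0.0957, in a range over the 11 alternatives of 0.00052 to 0.0957. DOP vs. C gave -0.37 (edgeR adjusted p = 0.326).

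Glutathione synthesis starts with glutamate-cysteine ligase, whose catalytic subunit is GCLC (ENSSSCG00000001488, chr7:27209565-27253535, plus strand) and whose modifier subunit is GCLM (ENSSSCG00000037549, chr4:123371198-123390130, plus strand). GCLC stood at 32.9, 42.0, 36.8, 38.3 and 47.6 CPM in C, at 36.2, 34.2, 36.0, 27.4 and 32.2 CPM in DOP and at 28.7, 24.7, 32.3, 29.7 and 30.1 CPM in WCOC. The WCOC libraries all lay below the C libraries, the highest of WCOC just under the lowest of C. The log2FC of WCOC vs. C was -0.44 (SE 0.11, edgeR adjusted p = 0.0198), past the p threshold but under the log2FC limit, so GCLC was not a DEG. That adjusted p moved to 0.0597 on flow cell A alone, in a range over the alternatives of 0.00278 to 0.174, and reached 0.052 at most when a single library was left out. GCLM stood at 62.9 ± 13.6 CPM in WCOC beside 65.9 ± 7.47 in C and 76.6 ± 9.69 in DOP (SD, n = 5 each), with a log2FC of -0.07 in WCOC vs. C (95% interval -0.35 to 0.22). Across the 15 libraries, centred within diets, the subunits had a Pearson r of 0.084 and a Spearman rho of 0.121.

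NQO1 (ENSSSCG00000002754, chr6:17292962-17302593, plus strand) encodes a quinone reductase and is a standard readout of NRF2. It measured 50.1, 37.9, 39.6, 49.5 and 40.2 CPM in C, 60.0, 51.3, 75.5, 48.3 and 57.6 CPM in DOP, and 39.8, 46.0, 51.0, 38.9 and 43.2 CPM in WCOC. Of the DOP libraries, 4 lay above all C libraries, and DOP replicate 4 fell within their range. DOP vs. C gave a log2FC of 0.43 (SE 0.12, unadjusted p = 0.00359 and adjusted p = 0.110 in edgeR), the largest difference from C of any NRF2 target among the members in DOP, but not a DEG. With DESeq2 the adjusted p was 0.0417, in a range over the 9 alternatives of 0.0417 to 0.630, still under the log2FC limit. WCOC stood at the level of C, with a log2FC of 0.01 (95% interval -0.26 to 0.28). In WCOC vs. DOP, where flow cell and diet cannot be told apart, the log2FC was -0.42 (edgeR adjusted p = 0.0403), again under the limit, and 12.3% of all genes had an adjusted p under 0.05. That of NQO1 stayed under 0.05 in 3 of the 10 fits that left out 1 library, those without DOP replicate 2, DOP replicate 4 or WCOC replicate 3 (range 0.0353 to 0.105 in edgeR), and the other alternatives gave 0.0178 to 0.361.

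NRF2 works with partners and repressors. Of 8 listed regulators 7 were tested, and 2 were DEGs in WCOC vs. C, both lower: the small MAF proteins MAFF and MAFG. Over all tested genes 3.93% were DEGs with a lower level in that comparison. MAFG, which pairs with NRF2 at AREs, fell from 22.4 ± 2.72 CPM in C to 14.2 ± 2.17 CPM in WCOC (SD, n = 5 each, log2FC -0.65, edgeR adjusted p = 0.00369), without overlap, and it was called whichever single library was left out. It was not called without the muscle-rich libraries or on lane 2 of flow cell A alone. MAFF fell from 18.3 ± 12.3 to 7.07 ± 1.59 CPM (log2FC -1.37, edgeR adjusted p = 0.0423), and in DOP it stood at 7.24 ± 3.33 CPM (log2FC -1.34 vs. C, edgeR adjusted p = 0.121). In DOP vs. C it was called with DESeq2 (log2FC -1.35, adjusted p = 0.0192) and with flow cell as a covariate (log2FC -2.37, edgeR adjusted p = 0.0314), in a range over 9 alternatives of 0.0192 to 0.75, and in 0 of the 10 fits that left out 1 library. The C libraries ranged widely for MAFF, from 8.24 to 37.5 CPM, and in WCOC vs. C it was called in 4 of the 10 fits that left out 1 library, being lost without C replicate 3 or 5 or without WCOC replicate 1, 3, 4 or 5 (log2FC from -1.57 to -0.94, edgeR adjusted p from 0.026 to 0.116). Among 11 other alternatives it was called in 3, and on flow cell A alone it was not (log2FC -0.95, edgeR adjusted p = 0.0965, in a range of 0.00522 to 0.22). NFE2L1, a relative of NFE2L2, was the most abundant regulator per length (72.5 CPM per kb). The median log2FC of the 7 regulators was -0.03 in WCOC vs. C and 0.05 in DOP vs. C.

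Beyond the members, 26 further NRF2 targets were listed, of which 23 had counts and 20 were tested. Of the 20, 16 were lower in WCOC vs. C and 4 higher, with a median log2FC of -0.31 beside 0.00433 over all genes. Among them 2 were DEGs, both lower, where 3.93% of all genes were DEGs with a lower level. Of these 2, ME1 had the lower log2FC. An unadjusted p under 0.05 was reached by 8 of the 20, as it was by 26.4% of all genes. ME1 (malic enzyme) fell from 1660.2 ± 523 CPM in C to 569 ± 271 CPM in WCOC (SD, n = 5 each, log2FC -1.55, edgeR adjusted p = 0.00739). The enzyme makes NADPH, which fat also uses for fatty acid synthesis. The count rests on single libraries: without WCOC replicate 2 it was 5, with TKT, PRDX1 and EPHX1 added, and without WCOC replicate 1 or replicate 4 it was 1 (ME1), as it was without the muscle-rich libraries. On lane 2 of flow cell A alone 0 were called, with a log2FC of -1.56 for ME1. FTL, the light chain of ferritin, was the most abundant listed target per length (1475 CPM per kb). TALDO1 and CBR1 are listed at 0 in all 15 libraries, and GPX2, with 0 to 189 counts, did not pass the filter.

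In DOP vs. C the same 20 targets split into 11 higher and 9 lower with a median log2FC of 0.04, and 0 of them were DEGs in edgeR, 1 having an unadjusted p under 0.05, as 17.6% of all genes had. DESeq2, which tests more genes, called 1 further listed target, GPX2. It is outside the 20 because it did not pass the filter on low counts. The authors, who used DESeq2, also listed GPX2 as a DEG with a higher level in DOP.

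AHR (ENSSSCG00000030484, chr9:86511866-86555950, plus strand) held 28.0, 37.0, 25.6, 23.1 and 43.5 CPM in C, 35.9, 35.7, 33.6, 33.0 and 33.9 CPM in DOP and 49.2, 23.2, 47.4, 52.4 and 48.6 CPM in WCOC. The DOP libraries lay close together, and 4 of the WCOC libraries lay above every library of the other diets, while WCOC replicate 2 lay at the bottom of the C range. The log2FC of WCOC vs. C was 0.49 (SE 0.20, edgeR adjusted p = 0.135). It became a DEG only when WCOC replicate 2 was left out, with a log2FC of 0.64 (edgeR adjusted p = 0.0145, in a range of 0.0145 to 0.272 over the 10 fits that leave out 1 library and 0.0668 to 0.52 over the other alternatives). That library stood apart in other ways too. Its macrophage markers summed to 337 CPM and its fibroblast markers to 22929 CPM, both the highest of WCOC. Its share of read pairs counted on genes was 67.2%, the lowest of WCOC, where the median was 74.3%. The part of cell makeup or of this share in its AHR level was not tested.

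CYP1A1 (ENSSSCG00000001906, chr7:58802887-58809155, plus strand) encodes the cytochrome P450 that oxidises aromatic hydrocarbons and is the usual measure of AHR activity. It held 2.60, 5.00, 2.23, 1.25 and 3.18 CPM in C, 3.57, 1.62, 5.53, 2.74 and 4.32 CPM in DOP and 6.38, 12.5, 8.55, 5.46 and 7.55 CPM in WCOC. Each WCOC library lay above each C library, and DOP overlapped both, its highest library just above the lowest of WCOC. The log2FC of WCOC vs. C was 1.505 (SE 0.36, 95% interval 0.73 to 2.28, edgeR adjusted p = 0.0199). On flow cell A alone it was 1.54, with an edgeR adjusted p of 0.0494, just under the threshold. CYP1A1 was called in 9 of the 10 fits that left out 1 library, the exception being C replicate 3 (log2FC 1.42, edgeR adjusted p = 0.0561, in a range of 0.0113 to 0.0561). It was no longer called without the muscle-rich libraries (log2FC 1.36, edgeR adjusted p = 0.109) or on lane 2 of flow cell A alone (log2FC 1.72, edgeR adjusted p = 0.113), the highest of the 11 alternatives, whose range began at 0.000702. These are counts of 32 to 334 per library, so counting error adds to the spread. DOP vs. C gave 0.32 (95% interval -0.45 to 1.09).

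CYP1B1 (ENSSSCG00000033844, chr3:102195743-102205687, plus strand, listed by RefSeq as LOC100625479 with the product cytochrome P450 1B1) encodes the related enzyme that also hydroxylates oestrogens and is another AHR target. In C it held 3.87, 8.33, 15.4, 7.79 and 11.9 CPM, in DOP 7.19, 11.5, 9.01, 8.83 and 7.32 CPM, and in WCOC 3.44, 3.74, 3.49, 2.89 and 4.07 CPM. The WCOC libraries lay within a narrow band below all DOP libraries and below all C libraries but replicate 1. The log2FC was -1.42 in WCOC vs. C (SE 0.28, edgeR adjusted p = 0.00693), and the gene was called whichever library was left out. It was also called on flow cell A alone, closer to the threshold (log2FC -1.34, edgeR adjusted p = 0.0443). On lane 2 of flow cell A alone the log2FC was -1.33 with an edgeR adjusted p of 0.161, the highest over the 11 alternatives, which began at 1.49e-05. DOP vs. C gave -0.11 (95% interval -0.68 to 0.46). The fibroblast markers were also lower in WCOC: all 8 had a negative log2FC against C with a median of -0.63. COL1A1, LUM and DPT of these markers were DEGs, where 3.93% of all genes were DEGs with a lower level. Their summed level was 20504 to 29800 CPM for C, 18518 to 28213 CPM for DOP and 13985 to 22929 CPM for WCOC. Within diets, the Pearson r of CYP1B1 with the mean of the fibroblast markers was 0.20 over 15 libraries and did not pass the test (rho = 0.275, permutation p = 0.461 and 0.352).

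CYP1A1 and CYP1B1 thus moved in opposite directions in WCOC. The ratio of their counts, CYP1A1 over CYP1B1, was 0.145 to 0.671 in C and 0.141 to 0.613 in DOP, and 1.86 to 3.34 in WCOC. This ratio was chosen after the values of both genes were seen and is given without a test. Within diets their r was -0.068.

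**Figure D3:**
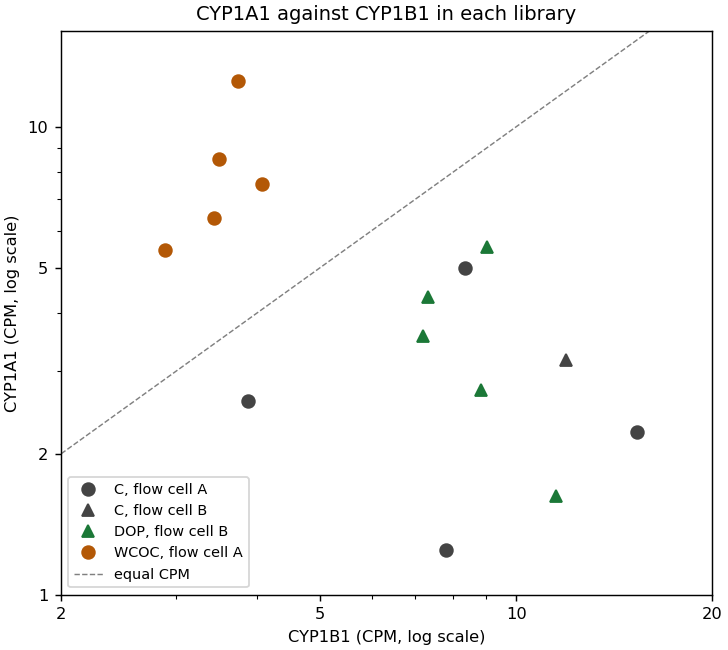
CYP1A1 against CYP1B1 in each of the 15 libraries (both axes in CPM on a log scale), coloured by diet and shaped by flow cell, with the line of equal CPM. All 5 WCOC libraries lie above the line and all C and DOP libraries below it.

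TIPARP (ENSSSCG00000027646, chr13:96496386-96524879, plus strand) encodes an ADP-ribosyltransferase that AHR induces and that in turn represses AHR. It stood at 20.7 ± 2.63 CPM in C, 20.9 ± 1.75 in DOP and 19.1 ± 1.55 in WCOC (SD, n = 5 each), and the groups overlapped. The log2FC of WCOC vs. C was -0.11 (95% interval -0.32 to 0.09), and DOP vs. C gave 0.01 (-0.19 to 0.22).

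Few other AHR targets could be tested in this fat. Of 11 listed, 9 had counts and 6 were tested, and 0 were DEGs in any comparison in edgeR, with 1 at an unadjusted p under 0.05 in DOP vs. C, 1 in WCOC vs. C and 3 in WCOC vs. DOP. Of all genes 17.6%, 26.4% and 28.1% reached that p in these comparisons. DESeq2 called none vs. C and 1 in WCOC vs. DOP (SLC7A5). AHRR, the AHR repressor that the receptor itself induces, had 18.97 ± 4.23 CPM in C, 18.7 ± 7.23 in DOP and 29.8 ± 9.21 in WCOC (SD, n = 5 each), with a log2FC of 0.65 in WCOC vs. C (SE 0.28, edgeR adjusted p = 0.148). AHRR falls outside the rule for named genes and was chosen after its values were seen. FOS was the most abundant listed target per length (32.0 CPM per kb). This level rested on DOP replicate 2 with 445 CPM, beside a median of 3.86 in DOP. The blood markers of that library summed to 15730 CPM, beside 2059 to 2344 CPM in the other DOP libraries. The part of blood in its FOS level was not tested. CYP1A2 is listed at 0 in all 15 libraries, as some genes of broad expression are in these files (TALDO1 and CBR1), so that the listing sets no limit on its level. The median log2FC of the 6 targets was 0.05 in WCOC vs. C and 0.14 in DOP vs. C. Among the AHR partners 4 of 6 were tested, and 0 were DEGs. HSP90AB1, a chaperone that holds AHR in the cytosol, was the most abundant per length (213 CPM per kb). The median of the partners was -0.18 in WCOC vs. C and -0.02 in DOP vs. C.

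Of 17 genes that make or use glutathione, 12 were tested, the list counting GCLC, GCLM and GSR again. None was a DEG in edgeR, with 3 at an unadjusted p under 0.05 in DOP vs. C, 4 in WCOC vs. C and 7 in WCOC vs. DOP, beside 17.6%, 26.4% and 28.1% of all genes. For WCOC vs. C 9 were lower and 3 higher (median log2FC -0.19), and in DOP vs. C 10 were higher and 2 lower (median 0.06). MGST3, a microsomal glutathione transferase, was the most abundant per length (157 CPM per kb). These comparisons share the C libraries.

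**Figure D4:**
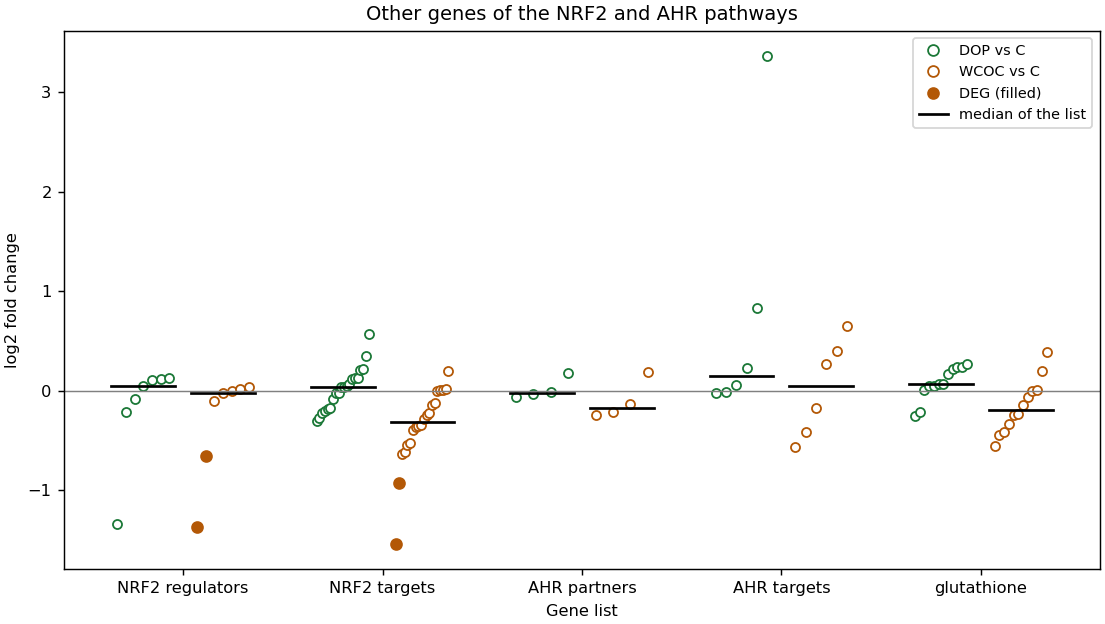
log2FC (vertical axis) of each tested gene of 5 lists in DOP vs. C (green) and WCOC vs. C (orange), with DEGs filled and the median of each list as a black bar. The NRF2 targets lie mostly below 0 in WCOC vs. C, with ME1 the lowest, and the green point at the top is FOS.

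In DOP vs. C, which sets the pulp feed against the control feed, 6 members were higher and 3 lower, with a median log2FC of 0.05 beside 0.011 over all genes. Of 9 members 0 were DEGs, 2 had an unadjusted p under 0.05 (NQO1 and GCLC) where 17.6% of all genes had, and DESeq2 and limma-voom called 0 as well. Over all genes 0.215% were DEGs with a higher level and 0.55% with a lower level, and levels did not overlap for 3.47% of genes and for 0 members. Of the C libraries only replicate 5 shared a flow cell with DOP. With flow cell as a covariate, which leans on that library, 3 members were higher in DOP vs. C.

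In WCOC vs. DOP, which sets cake silage against pulp feed, 3 members were higher and 6 lower, with a median log2FC of -0.19. CYP1A1 was a DEG with a higher level (log2FC 1.18, SE 0.36, edgeR adjusted p = 0.0441), where 2.65% of all genes were, and CYP1B1 a DEG with a lower level (log2FC -1.31, SE 0.27, edgeR adjusted p = 0.00968), where 5.11% were. Levels did not overlap for 1 member, CYP1B1, and for 8.9% of all genes. CYP1B1 was called in all 10 fits that left out 1 library, and CYP1A1 in 1 of 10, the one without DOP replicate 3 (edgeR adjusted p from 0.0269 to 0.0964). TXNRD1 was called only without DOP replicate 5 (log2FC -0.58, edgeR adjusted p = 0.05, in a range of 0.05 to 0.251). With flow cell as a covariate, which leans on C replicate 5, the log2FC was 1.38 for CYP1A1 and -0.88 for CYP1B1, and neither was called (edgeR adjusted p = 0.398 and 0.482). Of the further NRF2 targets, 18 of 20 were lower in WCOC than in DOP, and 4 were DEGs, among them ME1, BLVRB and MGST1. MGST1, a membrane-bound glutathione transferase, fell from 626 ± 106 to 403 ± 93.0 CPM, and BLVRB, a biliverdin reductase, from 24.1 ± 3.09 to 15.99 ± 4.34 CPM (SD, n = 5 each). MGST1 was called in 5 and BLVRB in 3 of the 10 fits that left out 1 library, the loss of DOP replicate 2, 3 or 4 or of WCOC replicate 1 or 4 ending the call of both, and that of WCOC replicate 3 or 5 the call of BLVRB as well. ME1 was called in all 10. The number of these targets called went from 1 without WCOC replicate 1 or 4 and 2 without DOP replicate 2, 3 or 4 to 8 without WCOC replicate 2. None of the 4 was called with flow cell as a covariate or without the muscle-rich libraries, where the log2FC of each stayed below 0.

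**Figure D5:**
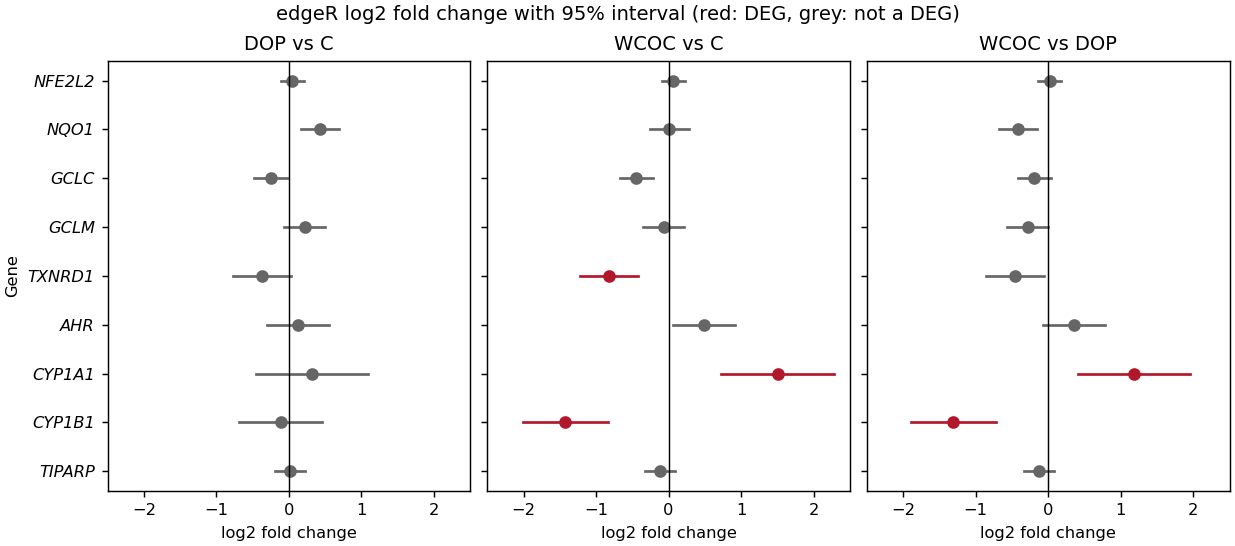
log2FC of each member (points) with its 95% interval (bars) in the 3 comparisons, DEGs in red. In WCOC vs. C TXNRD1 and CYP1B1 lie below and CYP1A1 above 0, in WCOC vs. DOP CYP1A1 and CYP1B1 are DEGs, and in DOP vs. C no member is.

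Markers of other cell types differed between the diets beside these genes. All 10 macrophage genes had a lower level in WCOC vs. C (median log2FC -1.17) and 4 were DEGs, where 3.93% of all genes were DEGs with a lower level. In DOP vs. C 9 of the 10 were lower and 1 higher. MSR1 was the only DEG there, where 0.55% of all genes were DEGs with a lower level. CSF1R was the most abundant of the macrophage genes. Their summed level was 251 to 729 CPM in C, 181 to 457 in DOP and 120 to 337 in WCOC. The giant cell markers, led by SPP1, summed to 55.6 to 826 CPM in C, 4.43 to 23.8 in DOP and 19.8 to 106 in WCOC. Of the 4 tested, 3 were DEGs with a lower level in DOP vs. C and 3 in WCOC vs. C. Over all genes 0.55% and 3.93% were. Adipocyte markers ran from 12092 to 15940 CPM in C, 14663 to 18918 in DOP and 14941 to 21377 in WCOC. In WCOC vs. C, 5 of the 7 tested adipocyte markers were higher and 2 lower (median log2FC 0.42). ADIPOQ was the only DEG among them, with a higher level. Endothelial markers, led by PECAM1, summed to 1007 to 1252 CPM in C, 1295 to 1684 in DOP and 1093 to 1759 in WCOC. None of the 7 tested was a DEG vs. C. CYP1A1 and the endothelial mean had an r of -0.087 and a rho of -0.082 within diets. Centring within diets removes the differences between diets, so the part of these shifts in the diet differences was not tested for any member. Smooth muscle and pericyte markers, with PDGFRB the most abundant, had a median log2FC of -0.22 in WCOC vs. C and no DEG. COL3A1 led the fibroblast, ACTA1 the skeletal muscle, KRT10 the epidermis, HBB the blood and CD2 the T cell markers, and none of the last 4 lists held a DEG vs. C. No B cell marker passed the filter.

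In all, 5 relations were examined over the 15 libraries, centred within diets. Besides those given, CYP1A1 and TIPARP had r = 0.099 and rho = 0.071. The permutation p of r ran from 0.461 to 0.87, and the adjusted p was 0.87 for each. Without the 2 libraries farthest from the median of the first measure r lay between -0.071 and 0.232, and among the 9 libraries of flow cell A between -0.071 and 0.240.

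The genes whose levels were most alike within diets were named by Pearson r of diet-centred log2 CPM over the 15 libraries, as a description. AHR was closest to CCNL1 (r = 0.959) and HOXD4 (0.953), NFE2L2 to ADAR (0.913) and PIGA (0.894), and GCLC to POP1 (0.908) and NUP160 (0.907). TXNRD1 was closest to SCX (0.893) and CDR2 (0.856), and GCLM to ACVR1C (0.879) and PALS1 (0.873). TIPARP was closest to DIS3 (0.836) and DNAI4 (0.831), CYP1A1 to WDR62 (0.816) and CLDN15 (0.798), CYP1B1 to CPPED1 (0.812), and NQO1 to PPA2 (0.786) and SLC16A11 (0.784). These genes were picked for the highest r among the tested genes with a symbol, so high values are built in. They were not tested. Between members the highest values were 0.724 for NFE2L2 with AHR and 0.680 for GCLC with AHR.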

How the data were processed

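The authors aligned untrimmed read pairs to Sscrofa11.1 with HISAT2, set as strand-specific, and counted them per gene with HTSeq. The deposited values are raw counts for 30477 genes per library, 1 file per pig. Summary lines of uncounted pairs (23.4% to 32.8% of a library) stayed out of library sizes. The annotation release and the strand option of counting are not given in the sources used here. Diet and replicate number came from the labels, whereas the names of the deposited files gave the flow cell and lane.

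The main tool was edgeR 4.0.16 in R 4.3.3. After filterByExpr by diet 14918 genes were scaled by TMM and fitted by quasi-likelihood with 1 mean per diet over 15 libraries, and p-values were two-sided and Benjamini-Hochberg adjusted over all tested genes. CPM and log2 CPM (prior count 1) were computed here. DESeq2 1.42.0, limma-voom (limma 3.58.1), other scaling and filters, a block for the replicate number, flow cell, lane, the muscle-rich libraries (over 1000 CPM) and each single library were tried as alternatives. The fit was tested on simulated counts with a common dispersion. In simulated DOP vs. C it called 58 of 100 genes changed by a log2FC of 1 in either direction. Of those changed by 1.5 it called 97 of 100, and it also called 8 unchanged genes. Relations used 100000 permutations within diets. The planned relation of HMOX1 with macrophage markers was not run.

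Members and lists (NRF2 regulators, NRF2 targets, AHR partners, AHR targets, glutathione and cell type markers) were written from general knowledge, with earlier results of these data known. The text names all members, each listed NRF2, AHR or glutathione gene that was a DEG, the most abundant gene of each list, and the 2 genes most like each member, except that 1 listed gene and 1 nearest gene are not reported here. Listed genes that are missing from the matched counts were not analysed here. Positions and sequences are from RefSeq on Sscrofa11.1. Each library is a separate pig, but pigs of a diet shared a pen, so p-values measure the spread between pigs within pens. Figures used Python 3.11.15 and matplotlib 3.10.9.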

Additional observations from a re-analysis of the deposited data

Results flagged for a closer look

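In 4 of 27 groups of 5 libraries (9 members in 3 diets), 1 library stood apart from the other 4 of its diet by Dixon's criterion, which chance meets in about 1 in 20 groups. NFE2L2 was high in DOP replicate 2 (145 CPM, beside 133 to 136 in the other DOP libraries), the library with the highest blood markers. GCLM was high in WCOC replicate 1 (86.9 CPM), and without that library the other 4 lay between 54.1 and 58.9 CPM. AHR was low in WCOC replicate 2 (23.2 CPM), where the other 4 lay between 47.4 and 52.4 CPM. TIPARP was low in DOP replicate 4 (17.8 CPM).

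The effects of the olive diets against C differed from each other for 3 of 9 members, by the edgeR test of WCOC vs. DOP, which is the difference of the effects on the log2 scale. An adjusted p under 0.05 in that test was reached by 12.3% of all genes. NQO1 differed by -0.42 (edgeR adjusted p = 0.0403), with a log2FC against C of 0.43 in DOP (edgeR adjusted p = 0.110) and 0.01 in WCOC. Leaving out single libraries gave adjusted p from 0.0353 to 0.105, under 0.05 in 3 of 10 fits (without DOP replicate 2, DOP replicate 4 or WCOC replicate 3). CYP1A1 differed by 1.18 (edgeR adjusted p = 0.0441, under 0.05 in 1 of 10 such fits, the one without DOP replicate 3) and CYP1B1 by -1.31 (edgeR adjusted p = 0.00968). The DOP and WCOC libraries were on different flow cells, which cannot be told apart from diet in these differences.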

How the results depend on the processing

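Depth limits the precision of CYP1A1 (32 to 334 counts per library) and CYP1B1 (79 to 482). For WCOC vs. C, the members called were TXNRD1, CYP1A1 and CYP1B1 under each alternative of tool, scaling, filter, samples fitted, block, flow cell and single libraries, except without C replicate 3 (CYP1A1 lost) and without WCOC replicate 2 (AHR gained). Without the muscle-rich libraries CYP1A1 was lost, in a fit that kept 3 C and 5 WCOC libraries. In the main fit of all 15 libraries GCLC was added when no log2FC limit was set. On lane 2 of flow cell A alone, 0 members and 0 NRF2 targets were called, the fit having fewer samples. No member was called in DOP vs. C under any alternative. Unless stated, the cause of a change was not tested.

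DEGs in DOP vs. C were 114, but 507 with DESeq2, 19 with limma-voom, 2 in a fit of only these diets, 0 with the replicate block (1950 genes at an unadjusted p under 0.05), 0 without the muscle-rich libraries (857 at an unadjusted p under 0.05), and 0 to 200 when single libraries were left out (0 without C replicate 3, C replicate 5, DOP replicate 2 or DOP replicate 4, and 200 without C replicate 1). With flow cell as a covariate DOP vs. C had 170 DEGs, 6 of them higher, whereas 32 of the 114 were higher. In WCOC vs. C there were 933, but 473 with the block, 486 on flow cell A, 354 without the muscle-rich libraries, 34 on lane 2, and 468 (without WCOC replicate 1) to 1163 (without WCOC replicate 2) when single libraries were left out. In WCOC vs. DOP there were 1158, but 561 with the block and 1 with flow cell as a covariate. Without the muscle-rich libraries there were 92, and when single libraries were left out 639 to 1291. The fits without the muscle-rich libraries had fewer samples (3 C, 2 DOP and 5 WCOC libraries).

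Members called in WCOC vs. DOP were 2, but 1 (CYP1B1) with no filter, with the block and without the muscle-rich libraries, 0 with flow cell as a covariate, and 1 to 2 when single libraries were left out. NRF2 targets called numbered 1 in DOP vs. C with DESeq2 and, in WCOC vs. C, 1 without the muscle-rich libraries and 1 to 5 when single libraries were left out. In WCOC vs. DOP they numbered 2 with the block, 0 with flow cell as a covariate, 0 without the muscle-rich libraries and 1 to 8 when single libraries were left out. AHR targets called numbered 1 in WCOC vs. DOP with DESeq2.

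Signs reversed for differences near 0. With flow cell as a covariate the log2FC in DOP vs. C was -0.14 for NFE2L2, -0.34 for AHR and -0.086 for TIPARP, in WCOC vs. C it was -0.017 for NQO1 (-0.027 on flow cell A) and in WCOC vs. DOP 0.15 for GCLC. Without the muscle-rich libraries NFE2L2 was at -0.034 in DOP vs. C, and on lane 2 GCLM was at 0.027 in WCOC vs. C. Leaving out single libraries moved CYP1B1 in DOP vs. C from -0.31 to 0.13, TIPARP in DOP vs. C from -0.031 to 0.078, NQO1 in WCOC vs. C from -0.050 to 0.057 and NFE2L2 in WCOC vs. DOP from -0.023 to 0.042. CYP1A1 with CYP1B1 gave 0.05 by Spearman rank and 0.035 on flow cell A, and CYP1A1 with TIPARP gave -0.071 on flow cell A.

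Replicate numbers did not pair the samples: the correlations of the deviations of same-numbered libraries ran from -0.495 to 0.345. As a block, the number ended the call of CYP1A1 in WCOC vs. DOP and of no other member, and it also ended those of MAFF in WCOC vs. C and of BLVRB and MGST1 in WCOC vs. DOP.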
